A study of Mus musculus with 4 samples.

Results

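The 37 genes described here encode the enzymes, carriers and regulators of fatty acid synthesis and fatty acid oxidation. They were taken as a list of symbols from the 24343 genes and unmatched transcripts in the deposited count table. The list was chosen with earlier results of these data known. Of the 37, 23 had enough reads to be tested and 14 did not. The libraries came from mouse group 3 innate lymphoid cells (ILC3s), lymphocytes without antigen receptors that respond to IL-23. They were sorted as lineage-negative, CD127-positive, GFP-positive cells from animals of genotype IL23R-GFP/WT, in which 1 copy of the IL-23 receptor locus carries the reporter, so that each group holds reporter-positive cells only. One group of 2 libraries was stimulated with TL1A, a TNF superfamily cytokine, and the other group of 2 libraries was kept in medium. The sources used here do not give the tissue of origin, animal age, TL1A dose, stimulation time or any pooling of animals. They also do not say whether the 2 libraries of a group came from separate animals or cultures, so each p-value reflects spread between libraries that may be technical only.

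Fatty acids are built in the cytosol from citrate-derived acetyl-CoA, which ATP citrate lyase releases, acetyl-CoA carboxylase turns into malonyl-CoA and fatty acid synthase assembles into palmitate. Desaturases and elongases then modify the chain, and acyltransferases store it as triglyceride in lipid droplets. Oxidation runs the other way: acyl-CoA is passed to carnitine by CPT1, carried across the inner mitochondrial membrane and shortened by repeated cycles of dehydrogenation, hydration, a further dehydrogenation and thiolysis. Malonyl-CoA inhibits CPT1, and activated lymphocytes are known for lipid synthesis while resting and memory cells are known for lipid oxidation.

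The libraries held 11849977 and 12605164 assigned reads with TL1A and 11495636 and 12222552 in medium. The genes that define the sort were counted in every library: Il7r, which encodes CD127, averaged 1199.7 ± 12.5 CPM with TL1A and 3606 ± 77.2 CPM in medium, and Il23r averaged 647.6 ± 22.2 CPM with TL1A and 1001 ± 7.93 CPM in medium (SD, n = 2 each). All 7 adipocyte markers listed had 0 reads in every library. Of these, Plin1, Cfd, Cidec and Retn have several deposited transcripts, and reads that fit several transcripts are in no row. Their level was therefore not measured, and only Adipoq, Lep and Pck1 have 1 deposited transcript. The 12 macrophage and monocyte markers, of which 8 were tested, summed to 748 and 735 CPM with TL1A and to 1651 and 1826 CPM in medium, most of it Fcer1g, and to 45.5 and 56.8 CPM with TL1A against 91.2 and 107 CPM in medium without Fcer1g. Of that list Adgre1 was higher, Cd14, Mpeg1 and Fcer1g were lower, 4 did not pass, and Itgam was at 0. Cd14 alone had 4.74 and 5.69 CPM with TL1A and 45.7 and 49.3 CPM in medium. The 10 epithelial and stromal markers summed to 4.93 and 5.09 CPM with TL1A and to 14.3 and 8.16 CPM in medium, with Col1a1 and Pdgfra at 0. Of the 7 dendritic cell markers 4 were tested. The 7 summed to 77.2 and 81.7 CPM with TL1A and to 219.6 and 129.5 CPM in medium. Xcr1 was lower, at 32.3 and 36.2 CPM with TL1A and 211 and 117 CPM in medium (log2 fold change -2.26, SE 0.26, adjusted p = 0.000424). Zbtb46 was higher, at 43.6 and 43.4 CPM with TL1A and 5.97 and 7.94 CPM in medium (log2 fold change 2.64, SE 0.18, adjusted p = 3.05e-05). Clec9a was at 0. Itgam, Pdgfra and Clec9a have several deposited transcripts each, so their values of 0 do not show that the transcripts were absent. The 9 ILC2 markers, of which 8 were tested, with 1 higher and 2 lower, summed to 304.5 and 279.6 CPM with TL1A and to 218.2 and 233.5 CPM in medium. The macrophage, dendritic cell and epithelial sums were smaller in both TL1A libraries, the direction of Cpt1a, Hadh and Acaa2. The ILC2 sum was larger in both, the direction of Fasn, Scd2 and Dgat2. Single genes carried much of these sums, so a sum does not give the direction of its list. Klrg1 had 138 and 131 CPM with TL1A and 27.4 and 27.9 CPM in medium. Of the other ILC2 markers, Gata3, Il1rl1, Il17rb and Hpgds were lower in both TL1A libraries and Il13 was higher in both. Xcr1 made up most of the dendritic cell sum in medium. The part of these sums in the results was not tested. In such bulk libraries a smaller share of cells with a transcript and less transcript per cell cannot be told apart.

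A large share of all genes differed between the groups. With edgeR's quasi-likelihood test and a threshold of 0.05 on the Benjamini-Hochberg adjusted p, 20.6% of the 9852 genes tested were higher and 21.7% were lower in TL1A libraries. Of the same genes 8.77% were higher and 10.6% lower by at least 2-fold as well, and the libraries of the groups did not overlap for 34.7% in the higher and 37.6% in the lower direction. Of the 23 tested members, 7 were higher, 5 were lower and 11 did not pass, and the groups did not overlap for 9 in the higher and 10 in the lower direction. Among them Dgat2 and Acsl4 were higher by 2-fold or more, and Fads1, Acaa2, Hadh and Cpt1a were lower by 2-fold or more, which makes 2 and 4 members. The median log2 fold change of the tested members was -0.04, against -0.03 for all genes tested, and the members ranged from -2.50 to 4.03. With library totals as the only scaling, which shifted the median of all genes by -0.26, 5 members were higher and 12 lower, against 13.3% higher and 35.3% lower among all genes.

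**Figure D1:**
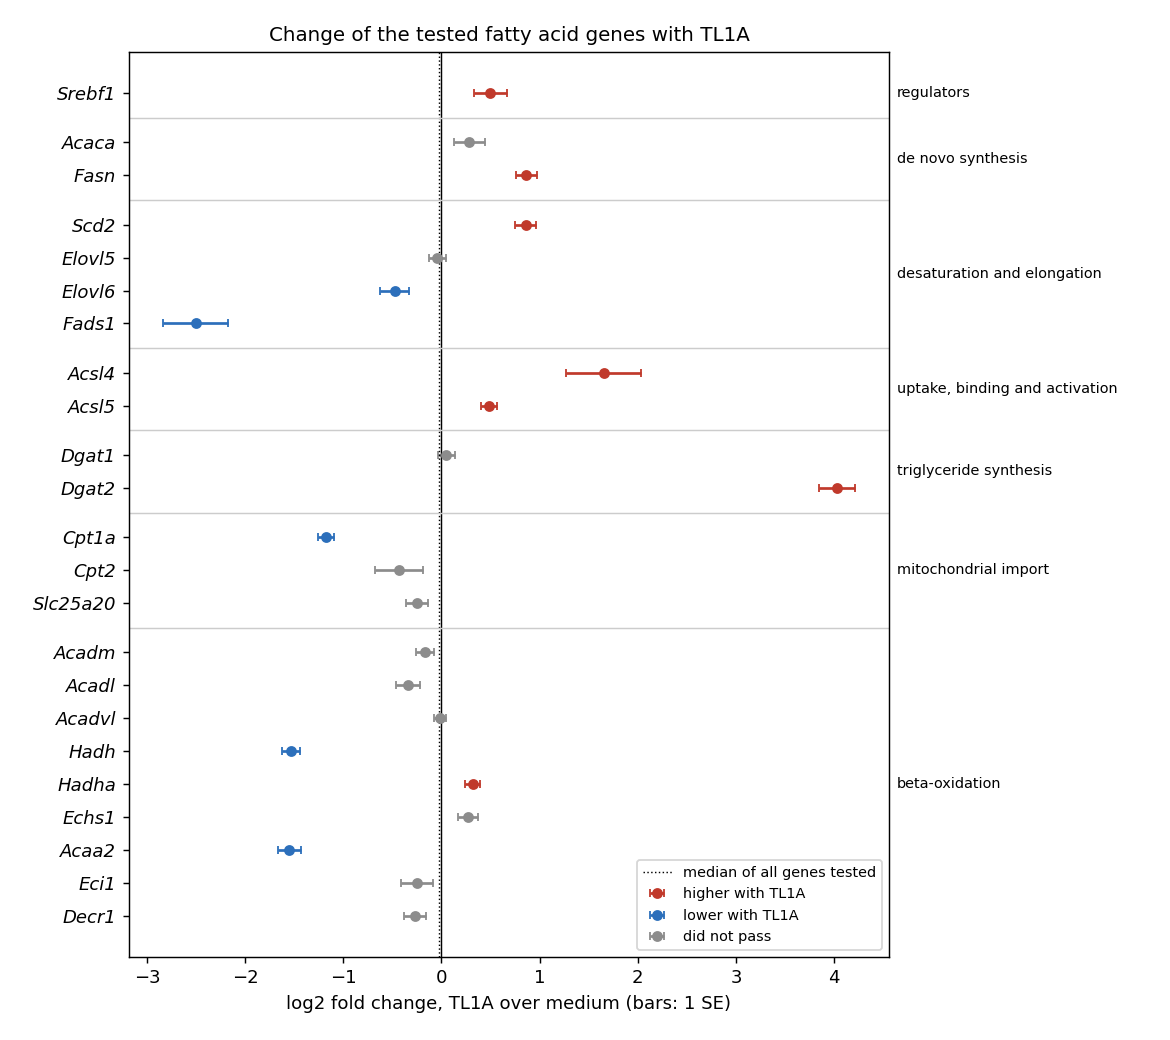
Log2 fold change, TL1A over medium, of the 23 tested members, grouped by role (points: edgeR estimates from 2 libraries per group; bars: 1 SE; dotted line: median of all genes tested at -0.03). Dgat2 stands far to the right at 4.03, and Fads1, Acaa2, Hadh and Cpt1a stand furthest to the left, between -2.50 and -1.18.

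The proximal promoters of Fasn, the synthase gene, and Cpt1a, the gene of the carnitine transferase that gates oxidation, are shown because the genes belong to opposed pathways and moved in opposite directions. Both were chosen after their values were seen. Each run holds 250 bases before and 50 after the annotated start, from RefSeq on build GRCm38.p6, 5′ to 3′ on the gene's strand, whereas the reads were aligned to mm9. Capitals mark CCAAT boxes (CCAAT) and nuclear receptor half-sites (AGGTCA), each on either strand. The Fasn window is chr11:120824498-120824797, minus strand, and the Cpt1a window is chr19:3323051-3323350, plus strand.
Fasn: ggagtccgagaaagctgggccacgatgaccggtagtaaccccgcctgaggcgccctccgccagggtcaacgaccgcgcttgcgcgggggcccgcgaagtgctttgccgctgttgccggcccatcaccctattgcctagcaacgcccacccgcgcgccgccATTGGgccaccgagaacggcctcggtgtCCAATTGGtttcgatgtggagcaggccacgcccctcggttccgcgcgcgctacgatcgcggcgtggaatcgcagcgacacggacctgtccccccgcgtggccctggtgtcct
Cpt1a: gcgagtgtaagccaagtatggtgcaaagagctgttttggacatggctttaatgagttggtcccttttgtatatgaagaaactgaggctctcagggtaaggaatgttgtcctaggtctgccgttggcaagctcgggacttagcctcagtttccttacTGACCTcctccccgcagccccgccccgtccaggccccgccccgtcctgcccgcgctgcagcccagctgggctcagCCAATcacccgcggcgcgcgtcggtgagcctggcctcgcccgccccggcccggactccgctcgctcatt

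The Fasn window held 3 CCAAT boxes, 1 beginning 90 bases before the start and 2 that overlap each other on opposite strands between 62 and 55 bases before it. The Cpt1a window held 1 CCAAT box, beginning 19 bases before the start, and 1 half-site, beginning 94 bases before it, with no overlap. CCAAT was present in 37.4% and AGGTCA in 16.3% of the 32851 promoters of the same length, so either is common. Among the 35 promoters of the 29 members with an entry, 15 held CCAAT and 12 held AGGTCA. Counted by gene, 13 of the 29 had a promoter with CCAAT and 11 had one with AGGTCA. Dgat2, Scd2 and Fads1 had no entry. The sterol regulatory element, searched only as TCACNCCAC on both strands, was present in 1.24% of all promoters. It was present in 1 of the 35 promoters of members, an Acsl1 promoter. Other forms of the element were not searched, so a promoter without this string may still hold one. The half-site in direct repeat with any 1 base between, the arrangement that PPAR receptors bind, was present in 0.0396% of all promoters and in no promoter of a member.

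Among the regulators, Srebf1, which encodes the transcription factor SREBP-1 that drives lipogenic genes, was modestly higher with TL1A. It had 43.6 and 42.8 CPM with TL1A and 34.9 and 26.3 CPM in medium (transcript NM_011480). Both TL1A libraries were above both medium libraries, and the medium libraries lay further apart from each other. Srebf1 overlaps the coding gene Rai1, and the sources used here give no strand setting. Srebf1 rose (log2 fold change 0.50, SE 0.16, adjusted p = 0.0442 in edgeR), a call close to the threshold that was lost without TL1A replicate 1 (adjusted p = 0.107), TL1A replicate 2 (0.0866) or medium replicate 2 (0.144), within a range of 0.0117 to 0.264 over all alternatives. The related receptor gene Ppard, outside the members, was tested and did not pass (log2 fold change -0.17, SE 0.20, adjusted p = 0.534). The lipid-sensing nuclear receptor genes among the members, Pparg and Ppara, could not be followed. Pparg had 2 and 0 reads with TL1A and 0 and 2 in medium, and Ppara had 0 reads in every library. Each has 2 deposited transcripts, and reads that fit several transcripts are in the ambiguous class and in no row, so these values do not show that either receptor was absent.

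Of the genes of de novo synthesis, Fasn rose and Acaca did not pass. Fasn, which encodes fatty acid synthase, had 152 and 153 CPM with TL1A and 90.4 and 77.0 CPM in medium (transcript NM_007988). The libraries of each group lay close together and the groups were well apart. Fasn rose 1.82-fold (log2 fold change 0.87, SE 0.10, adjusted p = 0.00052) and passed under every alternative run. Acaca, which encodes the acetyl-CoA carboxylase that supplies malonyl-CoA, had 20.5 and 21.0 CPM with TL1A and 17.9 and 16.1 CPM in medium. The groups did not overlap, but the difference did not pass (log2 fold change 0.28, SE 0.16, adjusted p = 0.193), and Acaca overlaps the coding genes Tada2a and Gm11437. Acly, which encodes ATP citrate lyase, had 1 and 4 reads with TL1A and 4 and 3 in medium over its 2 deposited transcripts. Acacb, which encodes the carboxylase isoform at the mitochondrial surface, had 3 and 1 reads with TL1A and 11 and 6 in medium. Neither was tested.

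Desaturase and elongase genes moved in both directions: of 4 tested, 1 rose, 2 fell and 1 did not pass. Among all genes 20.6% were higher and 21.7% lower. Scd2, a stearoyl-CoA desaturase gene that introduces the first double bond, had 125 and 120.4 CPM with TL1A and 72.6 and 62.8 CPM in medium (transcript NM_009128). It rose 1.81-fold, close to the fold of Fasn, with no overlap between groups (log2 fold change 0.86, SE 0.11, adjusted p = 0.000634), and passed under every alternative. Its paralogue Scd1 had 1 and 0 reads with TL1A and 0 and 9 in medium, so that 1 medium library held 9 of its 10 reads. The pair are close paralogues, so how their reads were divided is uncertain.

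Fads1, which encodes the delta-5 desaturase of polyunsaturated fatty acid synthesis, had 1.95 and 1.38 CPM with TL1A and 11 and 7.94 CPM in medium (transcript NM_146094). These values rest on 21 and 16 reads with TL1A and 138 and 106 reads in medium, and both stimulated libraries were far below both unstimulated ones. Fads1 fell by 2.50 on the log2 scale (SE 0.33, adjusted p = 0.000811), between 2.26 and 2.76 over the alternatives. Fads2, the gene of the delta-6 desaturase that acts before it, had 2 and 5 reads with TL1A and 0 in both medium libraries, too few to be tested. Elovl6, which encodes the elongase of saturated and monounsaturated chains, had 39.5 and 31.1 CPM with TL1A and 49.4 and 49.0 CPM in medium. It fell by 0.48 (SE 0.15, adjusted p = 0.0367). That call was lost without TL1A replicate 2 (log2 fold change -0.31, adjusted p = 0.232), medium replicate 1 (0.0733) or medium replicate 2 (0.0854), within a range of 0.00538 to 0.232 over all alternatives. Elovl5, an elongase of polyunsaturated chains, had 219 and 199.9 CPM with TL1A and 225 and 206 CPM in medium. The groups overlapped (log2 fold change -0.04, SE 0.09, adjusted p = 0.729), and the sign changed when single libraries were left out. Elovl1 had 3 to 4 reads per library, and Elovl7 had 0 reads with TL1A and 1 and 6 in medium.

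Acsl5 and Acsl4, the tested members among the long-chain acyl-CoA synthetase genes, whose products activate fatty acids with coenzyme A, rose. Acsl5 had 509 and 446 CPM with TL1A and 337 and 345 CPM in medium (transcript NM_027976). It rose 1.40-fold with no overlap between groups (log2 fold change 0.49, SE 0.08, adjusted p = 0.00262) and passed under every alternative. Acsl4, which prefers arachidonic acid, had 3.53 and 4.48 CPM with TL1A and 1.11 and 1.42 CPM in medium, on 38 and 52 reads with TL1A and 14 and 19 in medium, all from 1 of its 3 deposited transcripts. Both TL1A libraries were above both medium libraries. It rose 3.14-fold (log2 fold change 1.65, SE 0.38, adjusted p = 0.0112), but did not pass without TL1A replicate 2 (adjusted p = 0.0755, within a range of 0.00265 to 0.0755 over the alternatives). Acsl1 had 6 and 2 reads with TL1A and 4 and 5 in medium. Acsl3, the uptake receptor gene Cd36 and the lipid chaperone gene Fabp5 had 0 reads in every library. They have 3, 5 and 3 deposited transcripts, in that order, so their level was not measured.

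**Figure D2:**
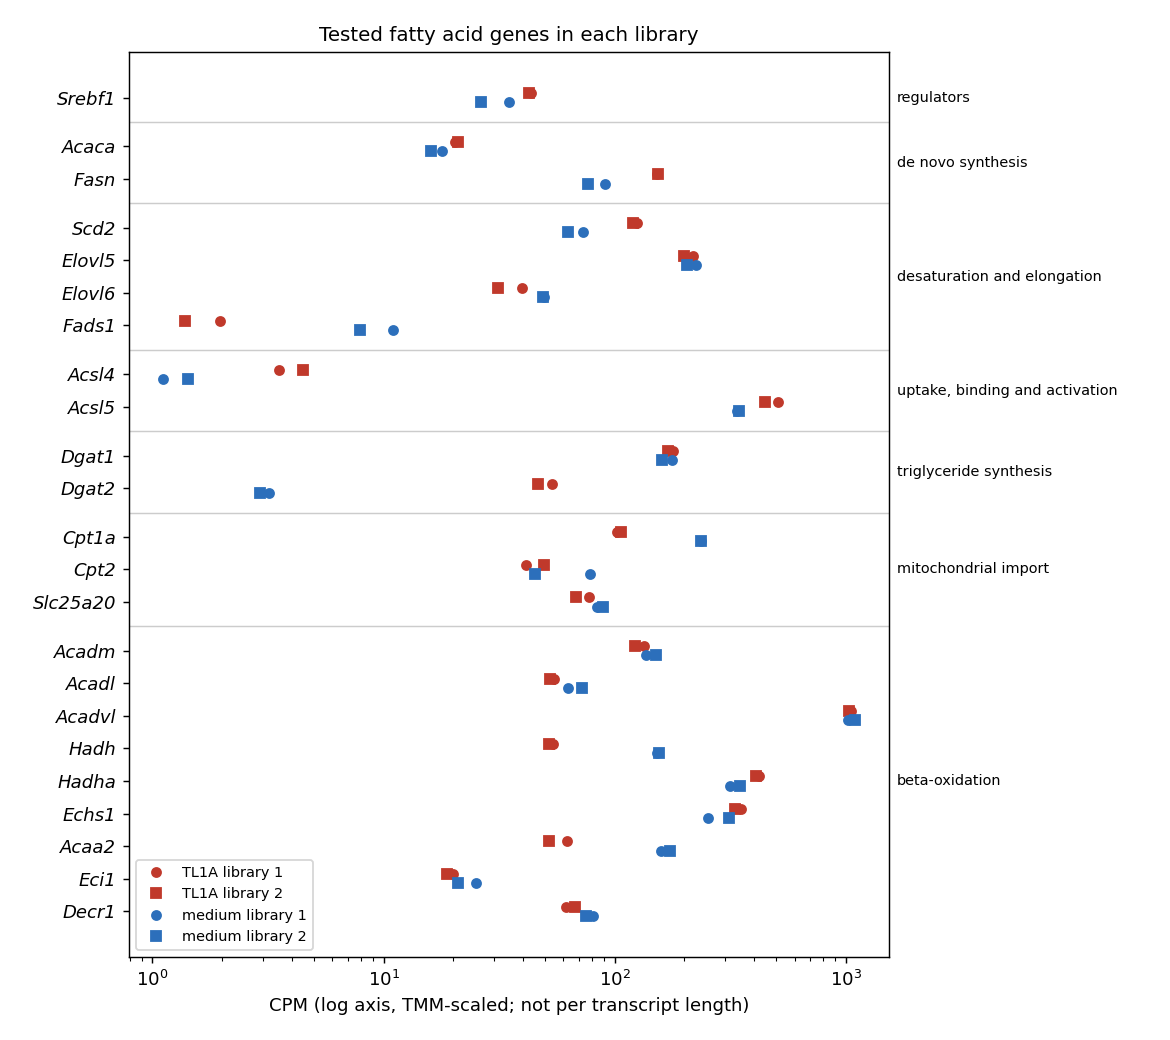
CPM (log axis, scaled by TMM, not per transcript length) of the 23 tested members in each library, grouped by role; red marks TL1A libraries 1 and 2 and blue marks medium libraries 1 and 2, as circles and squares. The colours are apart for 19 members, 9 higher and 10 lower, and overlap for Elovl5, Dgat1, Cpt2 and Acadvl. Among all genes tested the groups are apart for 34.7% in the higher and 37.6% in the lower direction. The gap is widest for Dgat2.

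The largest change among the tested members was in triglyceride synthesis. Dgat2 and Dgat1 encode unrelated enzymes that both add the third acyl chain to diacylglycerol, and DGAT2 is known for using newly made fatty acids. Dgat2 had 573 and 539 reads with TL1A and 40 and 39 reads in medium, which is 53.3 and 46.5 CPM with TL1A against 3.19 and 2.92 CPM in medium (transcript NM_026384). The groups were far apart and the libraries within each group lay close together. Dgat2 rose 16.3-fold (log2 fold change 4.03, SE 0.18, adjusted p = 3.53e-06), with a log2 fold change of 3.77 to 4.13 over the alternatives. Dgat1 had 179 and 169.9 CPM with TL1A and 177 and 160.4 CPM in medium, values that overlapped (log2 fold change 0.05, SE 0.09, adjusted p = 0.688; -0.21 with library totals only). Lpin1, which encodes the phosphatidate phosphatase that makes diacylglycerol, had 1 and 4 reads with TL1A and 1 and 3 in medium over 3 deposited transcripts and was not tested.

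**Figure D3:**
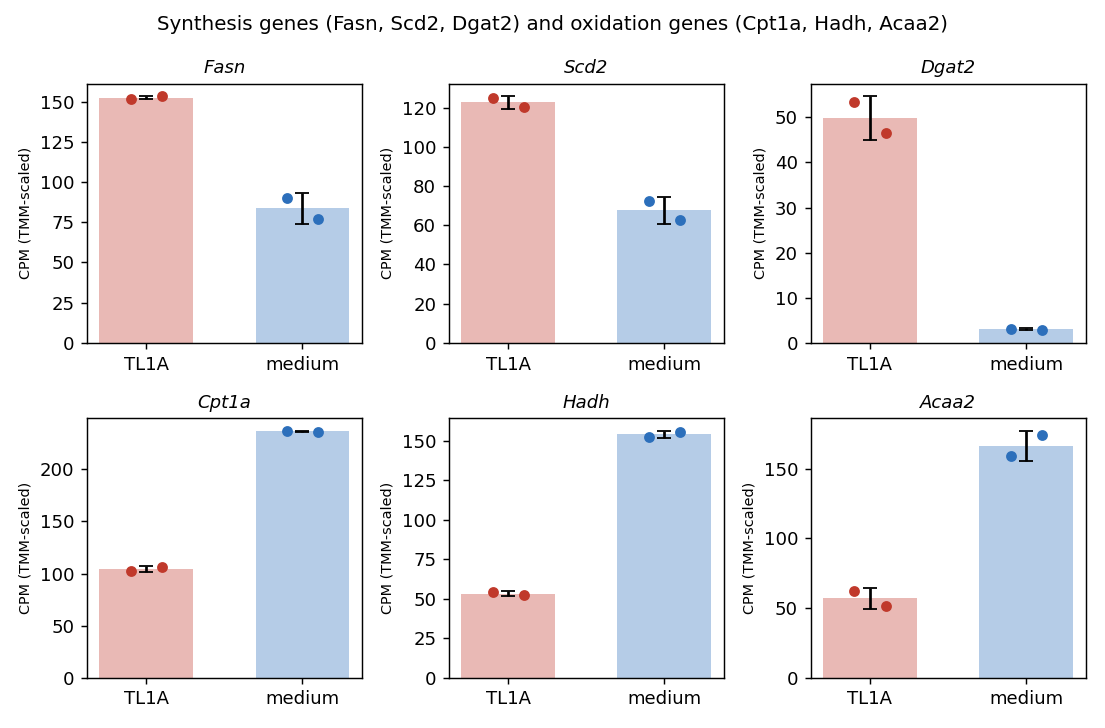
CPM (scaled by TMM, axes from 0) with TL1A and in medium for Fasn, Scd2 and Dgat2 in the upper row and Cpt1a, Hadh and Acaa2 in the lower row (points: libraries; bars and whiskers: mean and SD, n = 2). Each upper gene is higher and each lower gene is lower in both TL1A libraries than in either medium library. The genes shown are a selection, and other members went the other way. Fads1 and Elovl6 of desaturation and elongation fell (log2 fold change -2.50 and -0.48), and Hadha of beta-oxidation rose (0.32).

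Of the genes that bring fatty acids into mitochondria, Cpt1a fell and the other two did not pass. Cpt1a, which encodes the rate-limiting carnitine palmitoyltransferase of the outer membrane, had 102 and 107 CPM with TL1A and 237 and 236 CPM in medium (transcript NM_013495). Both stimulated libraries were below both medium libraries, and the spread within each group was small. Cpt1a fell by 1.18 on the log2 scale (SE 0.08, adjusted p = 2.63e-05), with a log2 fold change of -1.44 to -1.14 over the alternatives. Slc25a20, the carnitine-acylcarnitine carrier gene, had 77.5 and 68.0 CPM with TL1A and 84.0 and 88.7 CPM in medium (log2 fold change -0.25, SE 0.11, adjusted p = 0.113). Cpt2, whose product returns the acyl chain to coenzyme A inside the mitochondrion, had 41.5 and 49.6 CPM with TL1A and 78.0 and 45.1 CPM in medium. The medium libraries differed by more than the groups did (log2 fold change -0.43, SE 0.24, adjusted p = 0.198), and the value was 0.0078 without medium replicate 1 and -0.75 without medium replicate 2.

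Within the beta-oxidation spiral, 2 of 9 tested genes fell, 1 rose and 6 did not pass, beside 21.7% lower and 20.6% higher among all genes. Hadh, which encodes the matrix 3-hydroxyacyl-CoA dehydrogenase of short and medium chains, had 54.3 and 52.2 CPM with TL1A and 152 and 156 CPM in medium (transcript NM_008212). Acaa2, which encodes a mitochondrial thiolase of the last step, had 62.0 and 51.7 CPM with TL1A and 159 and 174 CPM in medium (transcript NM_177470). For both genes the TL1A libraries were far below the medium libraries, with no overlap. Hadh fell by 1.53 on the log2 scale (SE 0.09, adjusted p = 1.53e-05) and Acaa2 by 1.55 (SE 0.12, adjusted p = 4.89e-05), and both passed under every alternative.

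The trifunctional protein of the inner membrane carries out the same steps for long chains, and its 1 measured gene did not fall. Hadha, its alpha subunit gene, had 419.7 and 409 CPM with TL1A and 315 and 349 CPM in medium. It rose by 0.32 (SE 0.08, adjusted p = 0.0126), but did not pass without TL1A replicate 1 (adjusted p = 0.0661) or with library totals only (log2 fold change 0.063, adjusted p = 0.517, the upper end of a range from 0.00204). Hadhb, the beta subunit gene, had 0 reads in every library over 3 deposited transcripts. Echs1, the short-chain enoyl-CoA hydratase gene, which overlaps the coding gene Paox, had 351 and 331 CPM with TL1A and 254 and 312 CPM in medium (log2 fold change 0.27, SE 0.10, adjusted p = 0.0759). It passed as higher without medium replicate 2 (0.45, adjusted p = 0.00307; range over the alternatives 0.00307 to 0.941).

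The 3 acyl-CoA dehydrogenase genes among the members, which open each round for chains of different length, did not pass. Related genes outside the members, named here after their values were seen, were mixed. The short-chain enzyme gene Acads had 54.3 and 34.7 CPM with TL1A and 87.0 and 85.8 CPM in medium and fell (log2 fold change -0.96, SE 0.20, adjusted p = 0.00647). Acad12 (log2 fold change -0.66, SE 0.14, adjusted p = 0.00781) and Acad10 (-1.22, SE 0.20, adjusted p = 0.00248) fell as well. Acadsb (0.11, SE 0.08, adjusted p = 0.34), Acad9 (0.17, SE 0.22, adjusted p = 0.567) and Acad11 (0.09, SE 0.11, adjusted p = 0.536) did not pass. Acadvl, for very long chains, had 1055 and 1029 CPM with TL1A and 1016 and 1091 CPM in medium. The values overlapped (log2 fold change -0.02, SE 0.06, adjusted p = 0.866), and the estimate was 0.0082 with RLE factors and passed as lower with library totals only (-0.27, adjusted p = 0.00887). Acadm, for medium chains, had 133 and 122 CPM with TL1A and 137 and 150.5 CPM in medium (log2 fold change -0.17, SE 0.09, adjusted p = 0.198; -0.43 with library totals only, adjusted p = 0.0076). Acadl, for long chains, had 54.6 and 52.2 CPM with TL1A and 62.6 and 72.3 CPM in medium (log2 fold change -0.34, SE 0.12, adjusted p = 0.0586). Acadl passed as lower with a stricter count filter (-0.34, adjusted p = 0.0495) and with library totals only (-0.60, adjusted p = 0.00556). Its log2 fold change was -0.45 without medium replicate 1 and -0.20 without medium replicate 2. The auxiliary enzyme genes for unsaturated chains gave similar estimates: neither Decr1 (log2 fold change -0.27, SE 0.11, adjusted p = 0.0875) nor Eci1 (-0.25, SE 0.17, adjusted p = 0.268) passed, each with both TL1A libraries below both medium libraries. Over import and beta-oxidation together, 12 members were tested, 3 fell, 1 rose, 8 did not pass, and the median log2 fold change was -0.26, beside 21.7% lower and 20.6% higher among all genes. With library totals only, 9 of the 12 were lower and 0 higher, beside 35.3% lower and 13.3% higher among all genes. Over synthesis, desaturation and elongation, 6 were tested, 2 rose, 2 fell, 2 did not pass, and the median was 0.12.

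Members with several deposited transcripts were rarely counted. Of the 26 members with 1 deposited transcript, 22 were tested, whereas of the 11 with several only Acsl4 was. The 10 others with several transcripts had at most 6 reads in any library, and 5 of them had none. The 4 untested members with 1 transcript, Acacb, Scd1, Elovl7 and Fads2, had at most 11 reads.

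Genes of the same pathways outside the 37 were taken from 4 lists, chosen with earlier results of these data known. Of 57 tested, 7 rose, 18 fell and 32 did not pass, with a median log2 fold change of -0.11. The oxidation list had the most lower calls: 10 of 20 tested genes fell, none rose and 10 did not pass (median -0.44), against the 20.6% higher and 21.7% lower among all genes tested. Crot, which encodes the peroxisomal carnitine octanoyltransferase, had 163 and 175 CPM with TL1A and 439 and 441 CPM in medium and fell by 1.38 on the log2 scale (SE 0.07, adjusted p = 7.7e-06). The peroxisomal oxidase gene Acox3 fell by 1.02 (SE 0.10), the acyl-CoA dehydrogenase gene Acad10 by 1.22 (SE 0.20) and the mitochondrial hydroxyacyl-CoA dehydrogenase gene Hsd17b10 by 0.48 (SE 0.08).

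In the list of other synthesis genes, 4 of 12 tested rose, 3 fell and 5 did not pass (median 0.36). Among all genes 20.6% were higher and 21.7% lower. Mecr, which encodes the enoyl reductase of mitochondrial fatty acid synthesis, rose by 0.66 (SE 0.11), and Oxsm, the ketoacyl synthase of the same mitochondrial route, fell by 0.69 (SE 0.15). Acss2, which makes acetyl-CoA from acetate, had 2.70 and 2.76 CPM with TL1A and 9.24 and 9.81 CPM in medium and fell by 1.80 (SE 0.25, adjusted p = 0.0011). Acsf2, an acyl-CoA synthetase gene, fell by 2.19 (SE 0.20).

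Among 9 tested lipid regulators, 2 rose, 1 fell and 6 did not pass (median -0.02), beside 20.6% higher and 21.7% lower among all genes. Insig1, which encodes an endoplasmic reticulum protein that retains SREBP precursors and is itself an SREBP target, had 84.6 and 82.4 CPM with TL1A and 22.9 and 18.9 CPM in medium and rose (log2 fold change 2.0, SE 0.14, adjusted p = 3.05e-05). Srebf2, the gene of the sterol-responsive SREBP-2, rose by 0.41 (SE 0.14, adjusted p = 0.0461). Ppargc1b, a coactivator gene of mitochondrial metabolism, had 1.40 and 1.55 CPM with TL1A and 6.53 and 6.07 CPM in medium and fell by 2.09 (SE 0.32, adjusted p = 0.00157).

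In the list of uptake, glycerolipid and lipid droplet genes, 1 of 16 tested rose, 4 fell and 11 did not pass (median 0.02). The shares among all genes were 20.6% higher and 21.7% lower. Slc27a1, a fatty acid transporter gene, had 19.2 and 20.9 CPM with TL1A and 111 and 60.6 CPM in medium and fell by 2.10 (SE 0.27, adjusted p = 0.000769). The lipid droplet coat gene Plin3 fell by 0.67 (SE 0.07), the acyltransferase gene Agpat3 fell by 0.49 (SE 0.09) and its relative Agpat4 rose by 0.73 (SE 0.12). The count of higher genes over the 4 lists was 4 without TL1A replicate 2.

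**Figure D4:**
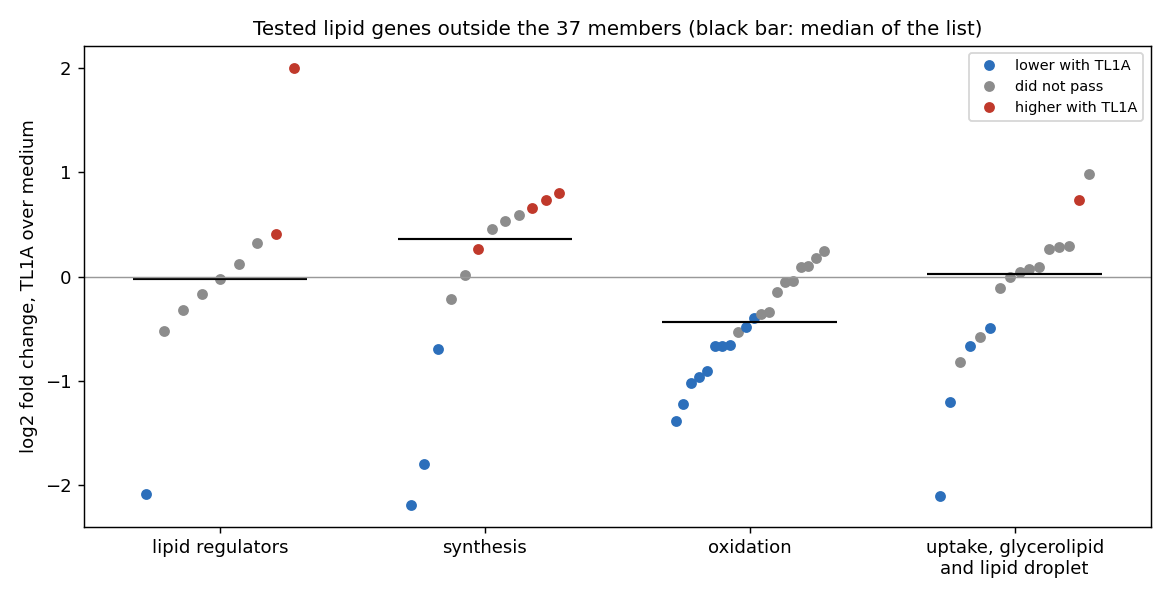
Log2 fold change, TL1A over medium, of the 57 tested lipid genes outside the 37 members, in 4 lists (points: genes; black bars: list medians of -0.02, 0.36, -0.44 and 0.02 from left to right). In the oxidation list 10 points are lower and none is higher at an adjusted p under 0.05.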

How the data were processed

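RNA-seq was carried out on 4 libraries of sorted mouse ILC3s, 2 stimulated with TL1A and 2 in medium. The SMARTer Ultra Low Input kit was used for cDNA, per the labels' protocols. Per the submitters' processing notes, CASAVA, STAR and HTSeq were used on build mm9; the sources used here give no versions, strand setting or annotation. Each deposited value is a raw count of reads for a RefSeq transcript, in 33535 rows plus 5 HTSeq summary rows (69.9% to 71.3% of each column), which were left out. A read that fits several transcripts is in the ambiguous class and in no row; that class made up 33.7% to 34.0% of the sum of itself and the assigned reads. With strand use not stated, overlapping genes are uncertain; 3 tested members overlap a coding gene and 9 overlap another annotated gene only.

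Of the rows, 33154 were matched to symbols through RefSeq (GRCm38.p6, names only), and 381 had no match and stayed under their own identifier (0.851% to 0.9% of the assigned total). Rows of a gene were summed. The test was edgeR 4.0.16 under R 4.3.3 (TMM; low genes removed by filterByExpr at a count of 10; glmQLFit, glmQLFTest; model with group alone; two-sided), Benjamini-Hochberg adjusted over all 9852 genes tested with a threshold of 0.05, and the code was tested on simulated data. CPM was scaled by TMM factors (0.908 and 0.921 for TL1A, 1.09 and 1.09 for medium); the SE is the log2 fold change over the square root of F. Levels are not compared between genes, since counted lengths are unknown. With 2 libraries on each side the smallest exact permutation p is 0.333, which is why the spread was pooled over genes. Replicates differed by more than sampling noise (chi-square over its degrees of freedom 6.15 for TL1A, 9.19 for medium). Alternatives were RLE factors, library totals, other count filters, DESeq2 1.42.0, limma-voom 3.58.1, the replicate number as a block, each library left out, and only the most counted row per gene; for the genes outside the members and for the import and oxidation members as a group they were added after seeing the data. The members and lists were chosen with earlier results of these data known. Genes given in full were members past the threshold with at least a 2-fold change plus Srebf1, Fasn, Acaca, Scd1, Scd2 and Cpt1a, with up to 4 genes of smallest p per outside list. Of 14 ILC3 markers 13 were tested, 6 rose and 6 fell. Of 6 T cell markers 3 were tested and 1 fell, with sums of 5.67 and 6.29 CPM for TL1A and 3.34 and 9.66 CPM for medium. None of 4 B cell markers was tested.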

Additional observations from a re-analysis of the deposited data

How the results depend on the processing

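The calls of Fasn, Scd2, Dgat2, Acsl5, Fads1, Cpt1a, Hadh and Acaa2 kept their direction and side of the threshold under all 12 alternatives run. The count of higher members was 7 and ranged from 5 to 8 over the alternatives that kept all 4 libraries. Among all genes the higher share was 20.6% and ranged from 13.3% to 23.8%. The count of lower members was 5 and ranged from 4 to 6, except with library totals only, beside 15.5% to 25.5% lower among all genes. Library totals as the only scaling lowered the log2 fold changes of all genes by a median of 0.26. Under that scaling 12 members were lower, 9 of them among the 12 tested of import and beta-oxidation (3 to 4 under the other alternatives), the higher genes outside the members numbered 3 in place of 7, the share of higher among all calls was 27.4% in place of 48.6%, and Dgat1 changed sign (-0.21). Acadvl changed sign with RLE factors (0.0082) and with DESeq2 (0.0082). With libraries left out, the log2 fold change ranged from -0.074 to 0.064 for Acadvl, from -0.10 to 0.031 for Elovl5 and from -0.75 to 0.0078 for Cpt2, and the higher genes outside the members numbered 4 to 9. The titles share replicate numbers but do not say what they stand for, and same-numbered libraries did not deviate together (correlation across genes of -0.13). With the replicate number as a block, 6 members were higher and 4 lower, beside 17.6% higher and 18.3% lower among all genes. In that fit Srebf1 (log2 fold change 0.51, adjusted p = 0.0548) and Elovl6 (-0.49, adjusted p = 0.0545) did not pass. Elovl6 did not pass with DESeq2 either (-0.45, adjusted p = 0.0513). Members with few counted reads, such as Scd1 and Fads2, were not tested.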
